A study of Homo sapiens with 6 samples.

Results

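The proteasome subunit and assembly genes were taken as every gene of the array whose symbol is PSM followed by a letter from A to G and a number, with 1 probe set per gene, the one with the highest mean signal over the 6 arrays. This rule found 45 genes among 18417 genes that have a probe set with a single annotated symbol. It used no difference between treatments. They fall into 8 classes by role: 8 genes of the core alpha ring, 7 of the core beta ring, 4 of the immunoproteasome and thymoproteasome beta subunits, 5 base ATPases, 3 base proteins without ATPase activity, 6 lid subunits, 5 activators and inhibitors, and 7 assembly chaperones. PSMC5, PSMD7 and PSMD13 were not analysed here.

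The arrays profiled neural stem cells at passage 14 that had been derived from SA-01, a human embryonic stem cell line. They were grown in a Neurobasal and D-MEM/F-12 medium with the supplements N-2 and B-27 and plated on polyornithine and laminin. In the treated group the compound X5050, called a REST inhibitor in the series title, was given at 100 µM, and in the control group the solvent DMSO was given at 0.1%. Either was added 5 h after plating, and the treatment lasted 24 h. Each group had 3 arrays, from 3 independent cultures that share replicate numbers between the groups. Whether X5050 was dissolved in the same amount of DMSO is not given in the sources used here, and all cultures came from 1 line. Values are log2 signals, changes are X5050 minus DMSO on that scale, and SEs and p-values come from limma with the culture as a block unless stated otherwise.

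Array medians lay between 5.68 and 5.75 and pairwise correlations between 0.984 and 0.993. The X5050 array of culture 2 had the highest median (5.75), the highest lower quartile (4.21) and the lowest upper quartile (7.38) of the 6 arrays. All 12 neural stem cell markers chosen were measured. SOX2, a core factor of these cells, had signals of 11.07, 11.03 and 10.99 on the X5050 arrays of cultures 1, 2 and 3, against 10.74, 10.91 and 11.00 on the DMSO arrays, while PTPRC, a pan-leukocyte marker, was near the floor of the array at 3.10, 3.22 and 3.08 against 3.14, 3.14 and 2.98. Of the 12 markers 9 were below 0 (47.2% of all genes were), with a median of -0.14, so SOX2 is not typical of its list. NES (-0.42, adjusted p = 0.113 in limma) and MSI1 (-0.23, adjusted p = 0.354) were lower in every culture without overlap. The mean log2 signal of the stem cell list was 8.82 to 8.88 with X5050 and 9.04 to 9.09 with DMSO. Of its 12 genes 1 passed the test, LIX1 (log2 change -1.38, adjusted p = 0.0177 in limma), where 0.498% of all probe sets did. LIX1 had the largest change of the list and so weighs most in that mean. The marker lists were chosen with earlier results of these data known, so a call of a listed marker is not independent of those results. Of the other marker lists, 1 gene each passed in 3: the neuronal SNAP25 rose (0.66, adjusted p = 0.0328), and the astrocytic GJA1 (-0.61, adjusted p = 0.0444) and the matrix gene LUM (-1.09, adjusted p = 0.0386) fell. Their lists did not all follow: 5 of 9 neuron markers were below 0 (median -0.018), as were 2 of 7 astrocyte markers (median 0.047) and 9 of 10 mesenchymal and matrix markers (median -0.23). Below 0 were also 1 of 6 oligodendrocyte, 2 of 3 pluripotent and 3 of 4 immune markers, again beside 47.2% of all genes. None of these 4 calls held without the replicate block, where the adjusted p was 0.172 for LIX1, 0.366 for SNAP25, 0.667 for GJA1 and 0.629 for LUM, and limma called 0 probe sets at all without culture 3. The mean over 10 mesenchymal and matrix markers was 6.72 to 7.99 with X5050 and 7.14 to 8.53 with DMSO, and it spread more widely between cultures than between treatments. In bulk samples of this kind a change in the make-up of a culture and a change of RNA per cell cannot be told apart.

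The proteasome is the barrel-shaped protease that degrades proteins tagged with ubiquitin. Its core is made of stacked rings of alpha and beta subunits, and the beta subunits PSMB5, PSMB6 and PSMB7 carry the active sites inside. A regulatory particle caps the core: its base holds a ring of ATPases that unfold the substrate, and its lid removes the ubiquitin. Dedicated chaperones build both parts, other caps of the PSME family can replace the regulatory particle, and immune signals exchange the catalytic subunits for PSMB8, PSMB9 and PSMB10. REST itself is known to be degraded by the proteasome after ubiquitination. When proteasome activity drops, the transcription factor NFE2L1 is known to raise most subunit genes together through antioxidant response elements.

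No proteasome gene passed the test, but most genes of the standard particle had slightly lower values with X5050. At an adjusted p under 0.05, 0 of the 45 genes were called in the paired limma fit, where 0.498% of all 19460 probe sets were (0.308% lower and 0.19% higher), and the smallest adjusted p was 0.164. At an unadjusted p under 0.05, 10 of the 45 were lower and 2 higher with X5050, against 7.48% and 7.06% of all probe sets. Of the 45 changes 38 were below 0 (47.2% of all 18417 genes were), with a median of -0.10 against 0.0094 over all genes. The X5050 signals lay below all DMSO signals for 13 of the 45 genes, where 7.25% of all genes did so, and above them for 1, where 7.68% did. Without the replicate block limma called 0 of the 45 and 0% of all probe sets, and at an unadjusted p under 0.05 it found 8 lower and 2 higher members, against 4.88% and 4.5% of all probe sets (9.37% in both directions).

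The 45 mean changes ran from -0.35 (PSMB6) to 0.35 (PSMD5), 5 of the 45 were lower by more than 1.2-fold (5.9% of all genes were) and 1 was higher by more than that (5.54% of all genes). Over all members the 95% intervals reached from -0.59 to 0.59. Lower values were more frequent among the subunits of the standard particle than among the other members. Counted without the testis form PSMA8, 27 of the 28 members in the alpha ring, beta ring, base and lid were below 0, with a median of -0.15. Of the other 17 members 11 were below 0, with a median of -0.047. Base and lid proteins with symbols outside the rule are not in these counts. Over all genes 47.2% were below 0. The difference between these groups of genes was not tested, and they also differed in median signal (9.64 for the 28 and 6.92 for the 17).

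**Figure D1:**
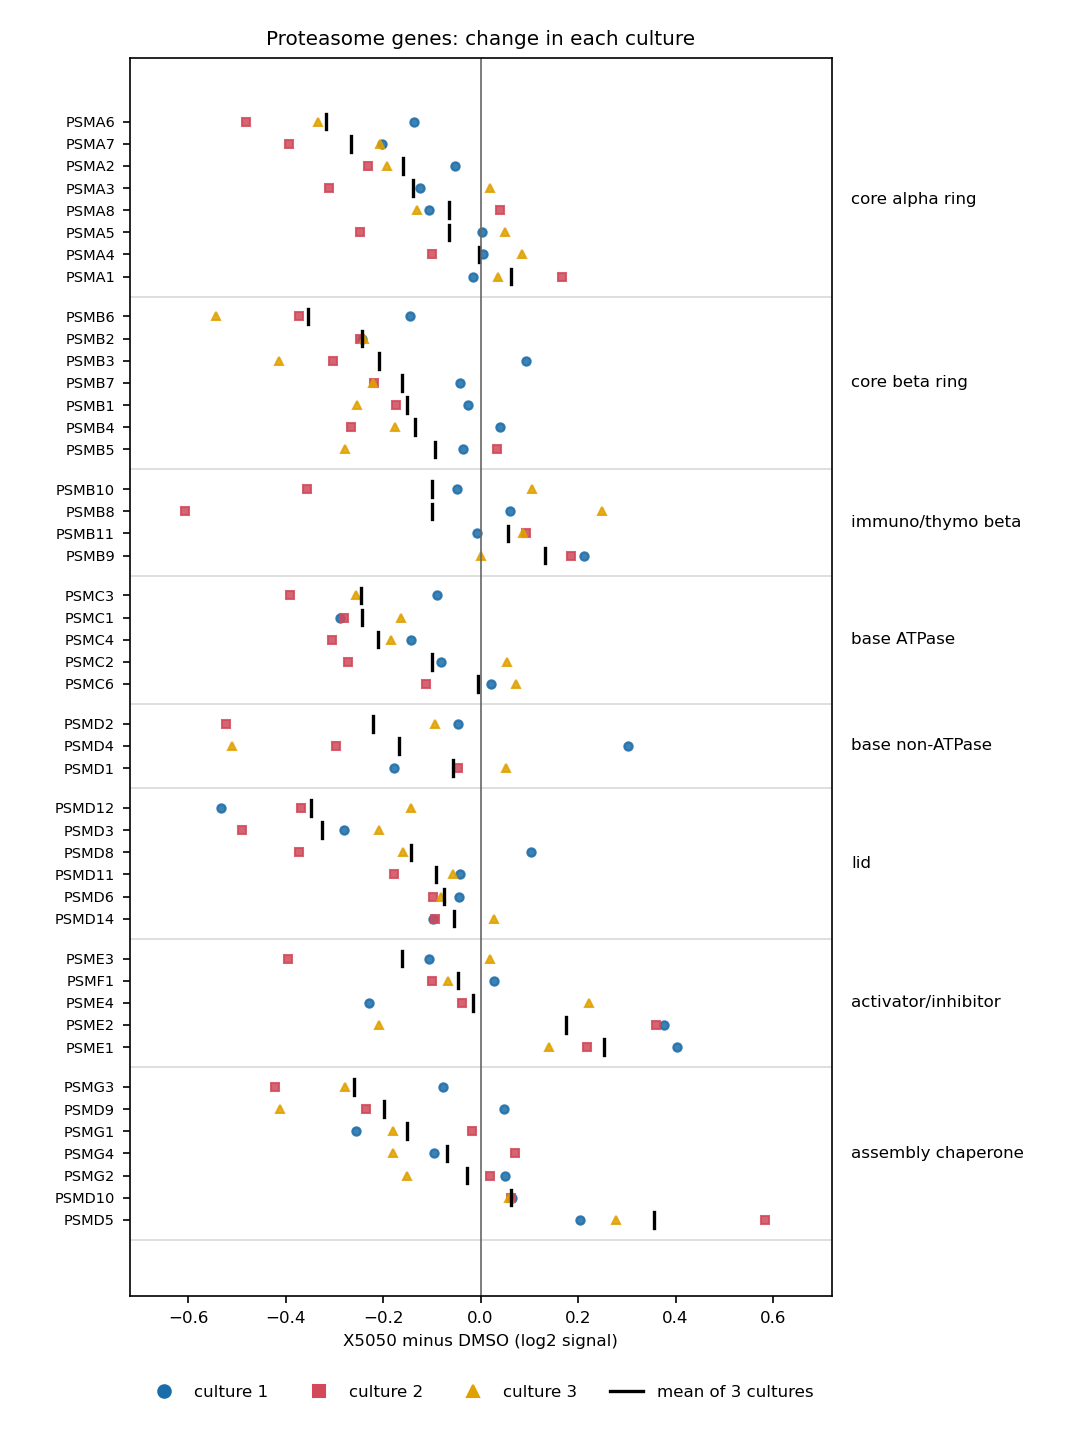
X5050 minus DMSO on the log2 scale (horizontal axis) for each of the 45 genes, ordered by class and by mean change. Points are the 3 cultures and bars their mean; all 7 beta ring genes, all 5 ATPases and all 6 lid genes have a mean below 0, while PSMD5 and PSME1 are above 0 in each culture.

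In the alpha ring, the gate through which substrates enter, 7 of 8 genes were below 0. PSMA6 had signals of 10.81, 10.44 and 10.62 with X5050 in cultures 1, 2 and 3, against 10.95, 10.92 and 10.95 with DMSO. Its X5050 values were spread while its DMSO values were nearly equal, and the groups did not overlap. The mean change was -0.32 (SE 0.099, 1.25-fold lower, n = 3 cultures, adjusted p = 0.188 in limma). PSMA7 stood at 10.28, 9.97 and 10.30 with X5050 and 10.48, 10.36 and 10.51 with DMSO, also without overlap (change -0.27, SE 0.091, adjusted p = 0.222). At the other end PSMA1 was the alpha gene above 0, at 0.063 (SE 0.090, from 0.010 without culture 2 to 0.10 without culture 1), and PSMA4 stood at -0.0029, with cultures on both sides of 0. PSMA2 (-0.16), PSMA3 (-0.14) and PSMA5 (-0.064) lay between. PSMA8, the alpha subunit of spermatogenic proteasomes, had a signal near the floor, 3.22 ± 0.076 with X5050 and 3.28 ± 0.050 with DMSO (SD, n = 3 each).

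All 7 beta ring genes were below 0, with a median of -0.16. PSMB6, which encodes the caspase-like active subunit, had signals of 9.13, 8.96 and 8.97 with X5050, against 9.27, 9.33 and 9.52 with DMSO. Every X5050 value was below every DMSO value, and the gap was widest in culture 3. The change of -0.35 (SE 0.10, 1.28-fold lower) had an adjusted p of 0.165 in limma and 0.366 without the replicate block. PSMB2, a structural beta subunit, gave the most even change of the beta ring: 10.23, 10.10 and 10.20 with X5050, against 10.47, 10.35 and 10.44 with DMSO. The differences in cultures 1, 2 and 3 were -0.24, -0.25 and -0.24 (mean -0.24, SE 0.086, adjusted p = 0.236). PSMB7, the trypsin-like subunit, stood at -0.16 (SE 0.091, adjusted p = 0.480). PSMB5, the chymotrypsin-like subunit and the main target of proteasome inhibitor drugs, had the smallest change of the ring, -0.094 (SE 0.098), with culture 2 above 0. It was -0.0014 without culture 3. PSMB3 (-0.21), PSMB1 (-0.15) and PSMB4 (-0.13) completed the ring, and PSMB3 and PSMB4 were above 0 in culture 1.

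**Figure D2:**
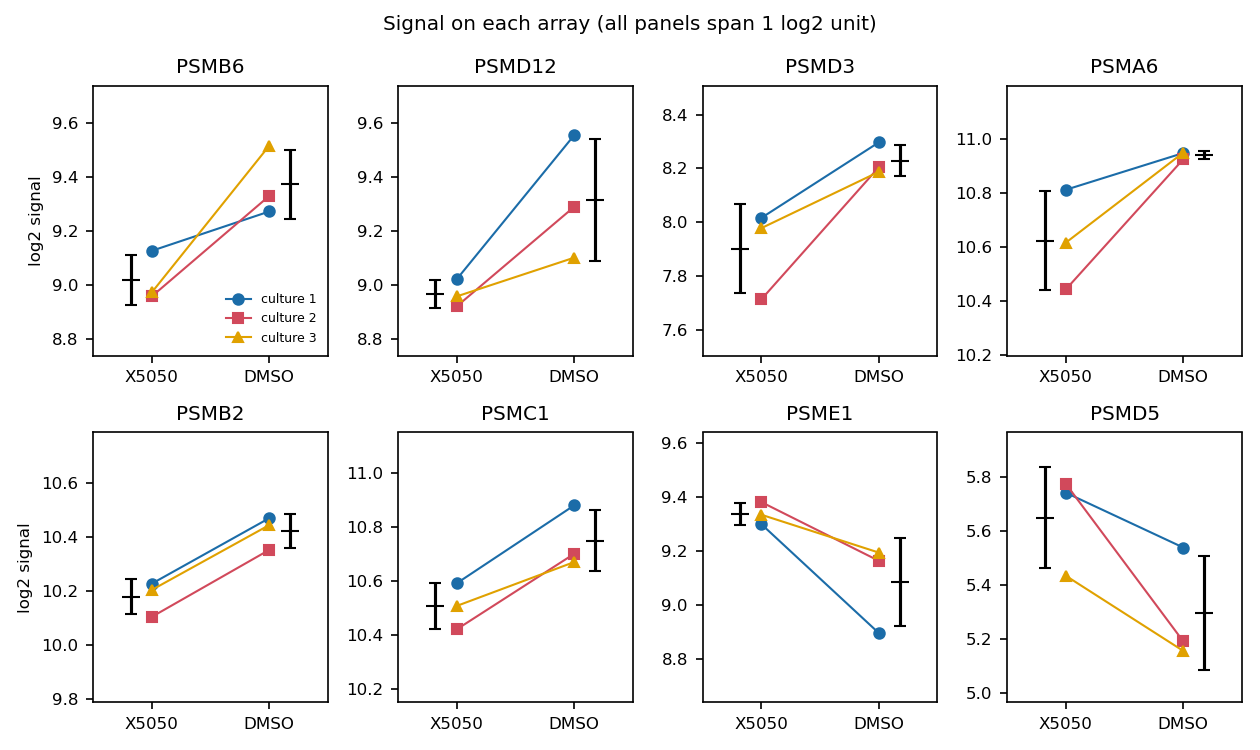
Log2 signal (vertical axis) of 8 genes on each array, X5050 left and DMSO right, with lines joining the arrays of 1 culture and bars for the mean ± SD (n = 3). Each line of PSMB6, PSMD12, PSMD3, PSMA6, PSMB2 and PSMC1 is lower at X5050, and each line of PSME1 and PSMD5 is higher there.

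The inducible beta subunits, which alter the peptides made for antigen presentation, had changes on both sides of 0 (2 of 4 below). Their class median of -0.021 was 0.073 without culture 2. PSMB8, the counterpart of PSMB5, had signals of 4.68, 3.99 and 4.43 with X5050 and 4.62, 4.60 and 4.18 with DMSO. The groups overlapped, and the 3 cultures differed in sign at 0.060, -0.61 and 0.25. Its mean change of -0.099 (SE 0.15, adjusted p = 0.847 in limma) became 0.15 without culture 2 and -0.27 without culture 3. PSMB9, the counterpart of PSMB6, was 5.81, 5.64 and 5.50 with X5050 and 5.60, 5.46 and 5.50 with DMSO, a change of 0.13 (SE 0.092, adjusted p = 0.593). It was above 0 in cultures 1 and 2 and level in culture 3, where PSMB6 had its most negative value. PSMB10, the counterpart of PSMB7, stood at -0.100 (SE 0.11, 95% interval -0.35 to 0.15), and at 0.029 without culture 2. PSMB11, the thymus form, was near the floor at 3.76 ± 0.046 with X5050 and 3.70 ± 0.083 with DMSO (SD, n = 3 each). PSMB8 and PSMB9 each have 3 probe sets on the array with identical values, so they add no further measurement.

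In the base all 5 measured ATPases were below 0, with a median of -0.21. PSMC1 had signals of 10.59, 10.42 and 10.51 with X5050, against 10.88, 10.70 and 10.67 with DMSO, without overlap (change -0.24, SE 0.088, adjusted p = 0.249 in limma). A further probe set of PSMC1 gave -0.25 at nearly the same signal. The annotation pairs both with the same transcripts, so a near-identical copy of the gene cannot be told apart from it. PSMC3 had signals of 9.25, 8.95 and 9.16 with X5050, against 9.34, 9.34 and 9.42 with DMSO. PSMC3 (-0.25, SE 0.096, adjusted p = 0.287) and PSMC4 (-0.21, SE 0.089, adjusted p = 0.328) were also lower in every culture without overlap. PSMC2 stood at -0.099 and PSMC6 at -0.0061, with a second PSMC6 probe set at -0.062. Of the base proteins without ATPase activity, the scaffold PSMD2 had signals of 8.91, 8.47 and 8.87 with X5050, against 8.96, 8.99 and 8.96 with DMSO (change -0.22, SE 0.11, adjusted p = 0.433). Most of that came from culture 2 (-0.52), and it was -0.070 without that culture. The scaffold PSMD1 stood at -0.057 and at 0.0030 without culture 1. The ubiquitin receptor PSMD4 had changes of 0.30, -0.30 and -0.51 in cultures 1, 2 and 3 (mean -0.17, SE 0.15), the widest spread among the subunits of base and lid.

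All 6 lid genes measured under the symbol rule were below 0 too. SEM1, a lid subunit named outside the rule, was counted with the partners and stood at -0.18 (SE 0.088, adjusted p = 0.402 in limma). PSMD12, a lid scaffold, had signals of 9.02, 8.92 and 8.96 with X5050, against 9.56, 9.29 and 9.10 with DMSO. The X5050 arrays were close together while the DMSO arrays ranged widely, and the difference was largest in culture 1. The change was -0.35 (SE 0.10, 1.27-fold lower, adjusted p = 0.168 in limma). PSMD3 had signals of 8.02, 7.71 and 7.98 with X5050 and 8.30, 8.20 and 8.19 with DMSO (change -0.33, SE 0.095, 1.25-fold lower, adjusted p = 0.167). Its groups did not overlap, and here culture 2 differed most. The other 4 lay closer to 0: PSMD8 at -0.14, PSMD11 at -0.092, PSMD6 at -0.074 and PSMD14, the enzyme that cuts ubiquitin from the substrate, at -0.055 (SE 0.088, adjusted p = 0.853, from -0.095 to -0.033 with 1 culture left out). The lid median was -0.12, and it was -0.19 without culture 1 and -0.056 without culture 2.

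The caps of the PSME family differed among themselves. PSME1, the alpha subunit of the interferon-inducible cap PA28, had signals of 9.30, 9.38 and 9.33 with X5050, against 8.90, 9.16 and 9.19 with DMSO. It was the member whose X5050 values all lay above its DMSO values. The change was 0.25 (SE 0.094, 1.19-fold higher, adjusted p = 0.261 in limma). PSME2, its partner in that cap, was higher by 0.38 and 0.36 in cultures 1 and 2 and lower in culture 3 (-0.21), for a mean of 0.18 (SE 0.13, adjusted p = 0.613). PSME3, the nuclear cap, stood at -0.16 (SE 0.10), and at -0.043 without culture 2. PSME4, the cap known for its work on acetylated histones, was -0.015, with cultures at -0.23, -0.038 and 0.22. PSMF1, an inhibitor of the core, was -0.047. The class median of -0.015 was 0.076 without culture 1.

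Among the assembly factors PSMD5, which holds an ATPase pair of the base before it is built in, had the smallest p of all 45 genes (unadjusted p = 0.0084 in limma). Its signals were 5.74, 5.77 and 5.43 with X5050, against 5.54, 5.19 and 5.16 with DMSO. It was higher in each culture, although the lowest X5050 array was below the highest DMSO array. With a mean signal of 5.47 it was among the dim probe sets left out in an alternative fit. The change was 0.35 (SE 0.10, 1.28-fold higher, adjusted p = 0.164 in limma), opposite in sign to most of the particle. PSMD10, another base chaperone, differed by 0.064, 0.063 and 0.059 in the 3 cultures (mean 0.062, SE 0.086). The third of them, PSMD9, stood at -0.20 (SE 0.11). The core chaperone PSMG3 had signals of 6.25, 5.82 and 6.13 with X5050 and 6.33, 6.24 and 6.41 with DMSO. Its groups overlapped slightly. Of the core chaperones PSMG3 was at -0.26 (SE 0.099, adjusted p = 0.274), PSMG1 at -0.15, PSMG4 at -0.068 and PSMG2 at -0.027. The class median of -0.068 became -0.14 without culture 2 and -0.012 without culture 3.

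The cultures differed in the size of the shift. The median change of the 45 genes was -0.044, -0.23 and -0.14 in cultures 1, 2 and 3, against 0.0019, 0.0033 and 0.0051 for all genes. In culture 1, 29 of the 45 were lower, in culture 2 34 and in culture 3 28, where 49.5%, 49.4% and 48.8% of all genes were. Lower in each of the 3 cultures were 17 members (17.3% of all genes) and higher in each were 3, PSME1, PSMD5 and PSMD10 (18.3% of all genes). The core beta ring was near -0.25 in cultures 2 and 3 and at -0.036 in culture 1. The base non-ATPase median of -0.17 was -0.31 without culture 1 and -0.070 without culture 2. Without culture 2 the median of all members was -0.063 and 33 of 45 were below 0. The mesenchymal marker median was -0.37, -0.28 and -0.11 in these cultures, a different order, and its part in the result was not tested.

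**Figure D3:**
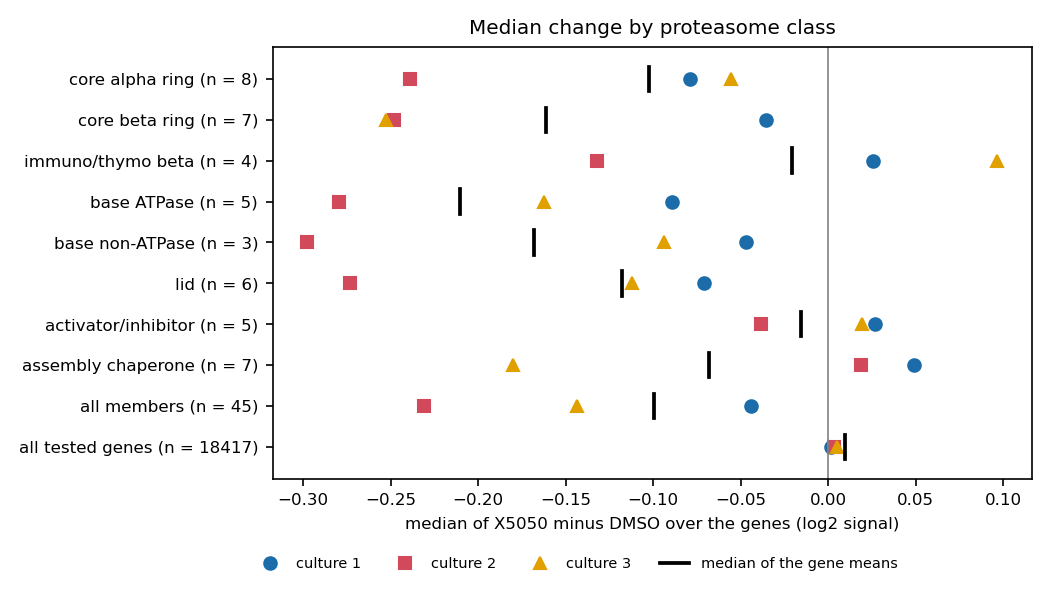
Median over the genes of a class of X5050 minus DMSO (log2, horizontal axis) for each culture (points) and for the mean of the cultures (bars), with all members and all tested genes at the bottom. Culture 2 is the most negative point of the alpha ring, ATPase, base and lid classes, and the points of all tested genes sit near 0.

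Most proteasome probe sets are bright on the array. Of the 45, 35 lay in the brightest of 4 equal bins of all genes by mean signal, and 31 of these 35 were below 0, with a median of -0.14. Over all 4605 genes of that bin 50.4% were below 0, with a median change of -0.0013. In culture 2 that bin stood at a median of -0.062, against 0.022 in culture 1 and 0.028 in culture 3, so the culture with the largest proteasome shift was also the one in which bright genes were lower. The X5050 array of culture 2 had the lowest upper quartile of all arrays, and the part of that array was not tested. Re-running quantile normalization left 34 of the 45 below 0, with a median of -0.10 and an all-gene median of 0.0078. By gene length, 29 of the 45 lay in the shorter 2 of 4 equal bins, where 51.7% and 52.5% of all genes were below 0, with medians of -0.0046 and -0.0080. The parts of signal and length in the result were not tested.

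**Figure D4:**
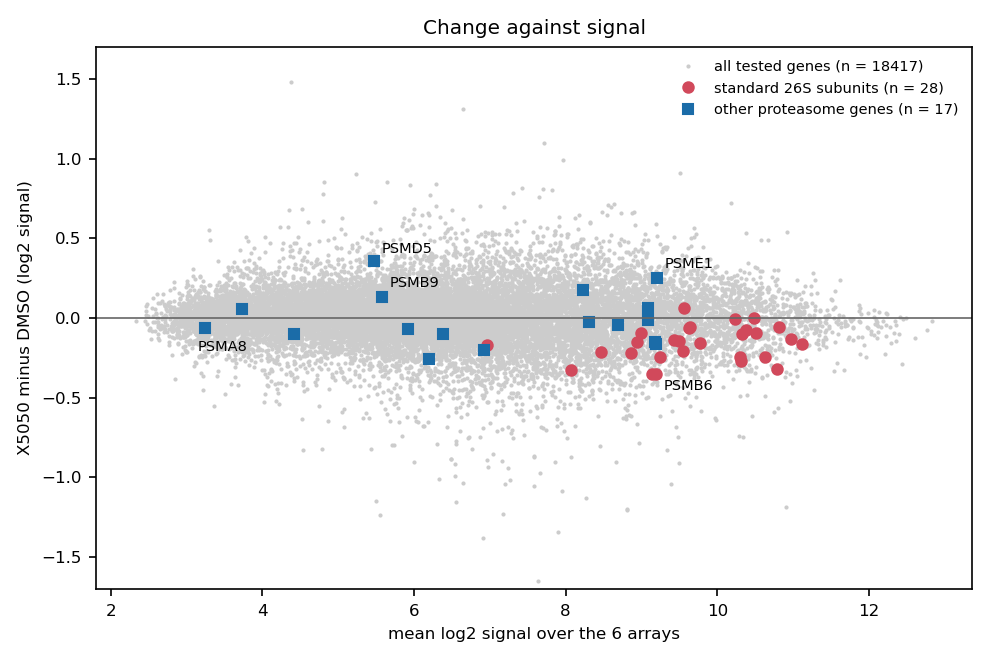
X5050 minus DMSO (log2, vertical axis) against the mean log2 signal over the 6 arrays for all 18417 tested genes (grey), the 28 standard subunits (circles) and the other 17 proteasome genes (squares). The circles lie at high signal and mostly just below 0, within the spread of other genes of like signal.

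Genes that work with the proteasome but carry other names also had 0 calls. In the list of 18 partners 17 were measured, 10 below and 7 above 0, with a median of -0.042 and 0 called in either direction by the paired limma fit (1 lower and 1 higher at an unadjusted p under 0.05). That median was -0.0071 without culture 2 and -0.0011 after quantile normalization. ADRM1, the ubiquitin receptor of the base, had signals of 7.62, 7.50 and 7.51 with X5050 and 7.91, 7.79 and 7.98 with DMSO, a change of -0.35 (SE 0.090, adjusted p = 0.132) with no overlap. POMP, the maturation factor of the core, was at -0.19 (SE 0.090, adjusted p = 0.388), and lower in each culture. PAAF1, a chaperone of the base, was 8.72, 8.77 and 8.88 with X5050 and 8.28, 8.61 and 8.70 with DMSO (change 0.26, SE 0.096, adjusted p = 0.250). Like PSMD5 it was higher with X5050 in all 3 cultures.

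Genes of the route that answers a loss of proteasome activity had no calls at the level of RNA. Protein and activity were not measured on these arrays. NFE2L1 had signals of 8.17, 7.93 and 7.92 with X5050 and 8.23, 8.01 and 8.29 with DMSO (change -0.17, SE 0.099, adjusted p = 0.514 in limma). NGLY1, the deglycosylating enzyme that helps to activate it, was at 0.26 (SE 0.090, adjusted p = 0.226), higher in each culture without overlap. The partner factor MAFG stood at -0.23 and the stress gene HERPUD1 at 0.21. Of 15 genes in that list 13 were measured (not DDI2 and MAFK), with 7 below 0, a median of -0.064 and 0 called (0 lower and 1 higher at an unadjusted p under 0.05). The median was -0.0058 without culture 1. Among 12 measured genes of protein folding stress 0 were called (0 lower and 1 higher unadjusted), the median was 0.056, and the 3 genes with the smallest p were DDIT3 (0.23, SE 0.095), HSPH1 (0.24, SE 0.11) and HSPB1 (0.16, SE 0.092). The ubiquitin-binding autophagy receptor SQSTM1 stood at -0.044 (SE 0.098, adjusted p = 0.896).

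Of the ubiquitin and activating-enzyme genes 4 of 8 were measured and 0 were called (1 lower and 1 higher unadjusted). UBB, a polyubiquitin gene, stood at -0.28 (SE 0.11, adjusted p = 0.287 in limma), the NEDD8-activating UBA3 at 0.24 (SE 0.093) and the main ubiquitin-activating enzyme UBA1 at -0.15 (SE 0.088). In the class I antigen processing list, which the immunoproteasome serves, 10 of 17 genes were measured, with a median of 0.0094 and 0 called (1 lower and 2 higher unadjusted). The median had no stable sign: it was 0.053 without culture 2, -0.024 without culture 3, -0.0096 with arrays centred and 0.15 without dim probe sets. CALR, the chaperone calreticulin, was 10.37, 10.22 and 10.04 with X5050 against 10.80, 10.56 and 10.48 with DMSO, a change of -0.40 (SE 0.087, adjusted p = 0.0958). B2M, the light chain of class I molecules, was at 0.38 (SE 0.096, adjusted p = 0.126) and the trimming peptidase ERAP1 at 0.24 (SE 0.10). Both were higher in each of the 3 cultures, as 18.3% of all genes were, though ERAP1 was nearly level in culture 2 (0.0074). In the list 4 of the 10 genes were below 0. The X5050 and DMSO values of B2M and of ERAP1 overlapped.

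The promoters of 39 members were present in RefSeq's promoter set (GRCh38.p14), in 47 windows of 250 bases before a transcription start. The core of the antioxidant response element, searched as TGACNNNGC on both strands, occurred in 12 of the 47 windows (25.5%), against 11.5% of 20109 windows of genes with a single symbol on the array and 10.9% of all 35116 windows. The CCAAT box (CCAAT) was in 36.2% of the member windows, 32.6% of the array-gene windows and 32.0% of all. The GC box (GGGCGG) was in 57.4%, 54.7% and 42.6%, and the E box (CACGTG) in 6.38%, 7.38% and 6.34%. None of the 13 matches of the response element core overlapped a match of the other 3 motifs. The 12 members with the core had a median change of -0.021, with 8 below 0, and the 27 without it a median of -0.099, with 24 below 0. Of the carriers PSMB9, PSMD5, PSMD9, PSME1, PSME2, PSME4, PSMG1 and PSMG2 are not standard subunits, so the groups differ in class too. The difference between them was not tested. No window was present for PSMB6, PSMA7, PSMB1, PSMB7, PSMD4 and PSMG3, all of them below 0. Windows of 4 members with the core are shown because their genes lay at both ends of the range of changes, PSMD12 and PSMD3 at the lower end and PSMD5 and PSME1 at the upper one; they were chosen after the values were seen. Each runs 5′ to 3′ on the gene's strand and ends at the base before the start, and capitals mark the core.
PSMD12 (chr17:67366578-67366827, minus strand): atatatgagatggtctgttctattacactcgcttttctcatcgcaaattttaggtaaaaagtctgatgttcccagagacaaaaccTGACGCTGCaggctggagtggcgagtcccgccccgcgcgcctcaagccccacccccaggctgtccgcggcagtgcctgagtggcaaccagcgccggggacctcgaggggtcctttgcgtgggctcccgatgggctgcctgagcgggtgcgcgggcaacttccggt
PSMD3 (chr17:39980557-39980806, plus strand): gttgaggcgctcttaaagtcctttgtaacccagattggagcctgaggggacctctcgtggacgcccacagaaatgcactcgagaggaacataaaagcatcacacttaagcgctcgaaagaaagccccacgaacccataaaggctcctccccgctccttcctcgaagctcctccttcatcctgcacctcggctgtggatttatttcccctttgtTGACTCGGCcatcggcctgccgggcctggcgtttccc
PSMD5 (chr9:120842923-120843172, minus strand): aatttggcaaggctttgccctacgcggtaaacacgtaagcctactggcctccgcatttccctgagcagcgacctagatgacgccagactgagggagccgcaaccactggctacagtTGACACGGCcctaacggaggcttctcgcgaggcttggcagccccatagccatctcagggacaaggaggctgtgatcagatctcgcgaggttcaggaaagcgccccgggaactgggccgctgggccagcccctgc
PSME1 (chr14:24135944-24136193, plus strand): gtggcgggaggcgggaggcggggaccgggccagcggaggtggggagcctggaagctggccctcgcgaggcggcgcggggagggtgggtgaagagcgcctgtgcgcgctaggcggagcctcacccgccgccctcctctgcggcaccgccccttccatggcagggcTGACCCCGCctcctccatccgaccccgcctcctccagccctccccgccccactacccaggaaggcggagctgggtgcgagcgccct
Because the 4 were picked from both ends, the core stood before genes with lower and genes with higher signals by choice. None of the 4 passed the test, and the part of the core in the changes was not tested. The matches are letters in a window and no evidence of binding.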

How the data were processed

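Biotinylated cDNA from 100 ng total RNA was read on 1 Affymetrix whole-transcript array per sample, per the labels' protocols. The authors deposited log2 signals per probe set, and RMA and Partek are named in the submitters' processing notes. For neither are versions or settings given in the sources used here. RMA compresses changes of dim probe sets, and the values carry no detection measure. The number of arrays limits the precision.

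Tests used the 19460 of 33297 probe sets that the platform annotation pairs with a single symbol. A further 1754 list several and 12083 are unnamed here. X5050 was compared with DMSO on these log2 values with limma 3.58.1 in R 4.3.3 (lmFit and eBayes, two-sided, treatment plus replicate number, 2 residual degrees of freedom, or 4 without the block), with Benjamini-Hochberg adjustment over the 19460 and a threshold of 0.05. The fit was also run on simulated data with planted changes larger than any of the 45 members had. That run cannot show whether changes of the members' size would be found. The design text, read as each culture receiving both treatments, gives the pairing. As a check, arrays were set against their group's mean: over all probe sets the residuals of arrays sharing a number had r of 0.365, 0.297 and 0.255. Arrays with different numbers had r from -0.236 to -0.052, in part because the residuals of a group sum to 0. Over the 45 members alone r was 0.252, -0.0085 and -0.040 for shared numbers, and -0.260 to 0.201 for different ones.

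The members, classes, 5 lists of related genes and 7 marker lists were chosen with earlier results of these data known. The genes named were the 12 with the smallest p, the catalytic beta subunits with their counterparts, the extremes of each class, and 3 genes per list, plus NFE2L1, POMP and SQSTM1. The other members are given by their change. Gene lengths and promoters are RefSeq's (GRCh38.p14). Alternatives were no block, other normalizations, dim probe sets left out, another probe set rule, another prior and each culture left out. Plots used matplotlib 3.10.9.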

Additional observations from a re-analysis of the deposited data

How the results depend on the processing

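Under all 9 alternatives 0 proteasome genes passed, with the smallest adjusted p between 0.0716 (trended, robust prior in limma) and 0.366 (no replicate block). Members below 0 numbered 33 to 36 of 45 with 1 culture left out, and 34 to 38 of 45 or 36 of 40 under the others. Their median ran from -0.13 to -0.063 with a culture left out, and was -0.10 without the block, -0.12 with arrays centred on their medians and -0.14 without dim probe sets. The count over all probe sets was less stable than these: 97 with pairing, 0 once the replicate block was dropped (no replicate block), 51 after another quantile normalization, 182 without dim probe sets, 265 with the trended prior, and 0 to 346 with 1 culture left out (346 without culture 1, 81 without culture 2, 0 without culture 3). Among the named members PSMC6 (0.039) and PSMD1 (0.0076) turned positive after quantile normalization. Leaving out 1 culture, PSMC6 ranged from -0.046 to 0.047, PSMD1 from -0.11 to 0.0030, PSMB10 from -0.20 to 0.029 and PSMB8 from -0.27 to 0.15, each crossing 0. The class I list had 1 call, CALR, with the trended prior, against 0 otherwise. The cause of these differences was not tested. With 3 cultures the 95% interval was wider than the change for all 45 members. It still excluded 0 for 12 of the 45, without adjustment for the number of tests, as it did for 2671 of all 18417 genes.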
